A study of Fukomys damarensis with 16 samples.

Results

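Of 21082 genes measured in the Damaraland mole-rat, Fukomys damarensis, 193 were expressed in testis and nearly or wholly unread elsewhere. They are the genes whose level reached 1 RPKM in each testis library and stayed below 0.1 RPKM in every one of the 14 libraries of other tissues, where RPKM counts reads per kilobase of a gene model and per 1e6 of a library total. What that total, the library's divisor, counts is not known from the sources used here. These values chose the genes, so their testis levels and their low values elsewhere are given as a description and without a test. The study sequenced poly(A)+ RNA of 5 tissues from breeding and non-breeding animals. Testis came from a breeding male, for which the labels give no age, and from a non-breeding male of 5 years. Ovary came from a breeding female and a non-breeding female of 3 years. Kidney, liver and brain each gave 4 libraries, 1 from a breeder of each sex, 1 from a non-breeding male of 5 years and 1 from a non-breeding female of 3 years. Every combination of tissue, sex and status is 1 library, and the labels do not say whether a library holds RNA of 1 animal or several. Brain is labelled as frontal brain in 3 of its 4 libraries and as brain in the non-breeding male. The labels name no strain, transgene or treatment.

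The testis makes sperm in an ordered series of cell types: spermatogonia divide, spermatocytes pass through meiosis, and spermatids reshape into sperm. Mammalian spermatocytes and spermatids are known to transcribe many genes that other tissues keep silent, among them genes for meiotic recombination, the acrosome, the flagellum and the compaction of sperm chromatin. Sertoli cells, which nurse the germ cells, and Leydig cells, which make testosterone, also have transcripts of their own. In the Damaraland mole-rat, helpers live in a colony in which few animals breed. The deposited table pairs no identifier with a gene name, and 0 of its 21082 identifiers were found among the 33132 genes of the table that RefSeq gives for assembly DMR_v1.0_HiC. The testis label could therefore not be checked against cell type markers, no role is assigned to any of the 193 genes, and few identifiers are printed.

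The 2 testis libraries held 18555319 reads on genes (breeding) and 26730187 (non-breeding), and the 14 other libraries held 15393003 to 27593857. These reads were recovered from the RPKM values, which are exact quotients of whole numbers. Deposited RPKM of liver run high against those of other tissues, because reads on genes were 1.55 to 1.97 times the library's divisor there and 0.665 to 0.945 times elsewhere.

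The testis held far more such genes than any other tissue. The same rule applied to each other tissue in turn found 25 genes for brain, 6 for ovary, 5 for kidney and 3 for liver. Brain, kidney and liver had to reach 1 RPKM in 4 libraries and testis in 2. When only 2 libraries of those tissues had to reach it, the counts were 27 to 32 in brain, 5 to 10 in kidney and 4 to 6 in liver, depending on the libraries taken.

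Most of the 193 genes were expressed at low levels. In the breeding testis their values ran from 1.01 to 150.7 RPKM with a median of 3.98, and in the non-breeding testis from 1.01 to 176.1 RPKM with a median of 6.14. The other 14357 genes that reached 1 RPKM in each testis library had medians of 13.1 RPKM in the breeding and 13.5 RPKM in the non-breeding testis. Under 2 RPKM lay 48 of the 193 genes in the breeding testis and 31 in the non-breeding testis. At 10 RPKM or more stood 61 of them (31.6%) in the breeding testis, against 57.9% of the other genes, and 75 (38.9%) in the non-breeding testis, against 59.1%. At 100 RPKM or more stood 3 genes in the breeding testis and 8 in the non-breeding testis. Together the 193 genes took 0.447% of the reads on genes in the breeding testis and 0.561% in the non-breeding testis.

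**Figure D1:**
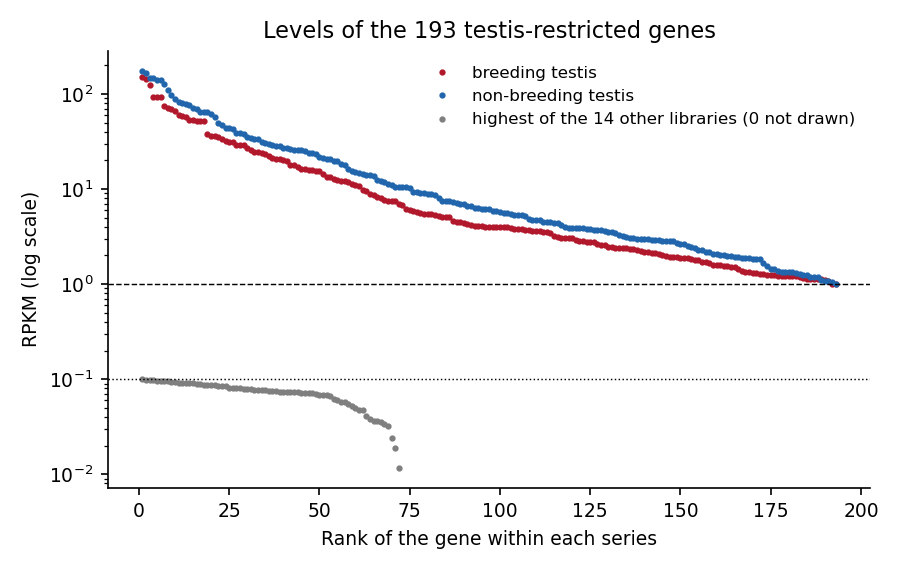
RPKM (log scale) of the 193 testis-restricted genes, ranked separately in the breeding testis, the non-breeding testis and for the highest value among the 14 other libraries; dashed and dotted lines mark 1 and 0.1 RPKM. Values in the testis libraries reach 150.7 (breeding) and 176.1 (non-breeding), while 72 genes have any value above 0 elsewhere and all of these lie under 0.1.

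A few abundant transcripts held much of the sum. The 10 genes with the highest mean over the testis libraries accounted for 34.3% of the summed RPKM of the 193, and the top 20 for 52.8%. The gene with the highest mean of both testes, DMR_04724, stood at 150.7 RPKM (769 reads) in the breeding testis and 167.6 RPKM (1195 reads) in the non-breeding testis. It had 0 reads in each of the 14 other libraries, which allows up to 3 reads or, at its length of 183 bases, 0.541 to 1.23 RPKM depending on the library. Both testis values thus lay at least 122-fold above the highest of these limits. At this length a single read elsewhere would have exceeded 0.1 RPKM in every library.

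DMR_11112, the second by this mean, is a longer gene of 1167 bases and was measured far more deeply. It stood at 142.7 RPKM (4645 reads) in the breeding testis and 146.5 RPKM (6660 reads) in the non-breeding testis. Elsewhere it had 11 reads in 7 libraries. These were 2 reads in each ovary, in the breeding male frontal brain and in the non-breeding female frontal brain, and 1 read in the breeding male kidney, the breeding female kidney and the breeding female liver. Its highest value outside testis, 0.0875 RPKM in the non-breeding female frontal brain, was 1652 times lower than its testis mean.

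No read in any of the 14 other libraries was found for 121 of the 193 genes (62.7%). The rule fixes part of this share. At the recovered lengths, 31 of the 193 could have no read elsewhere, since 1 read in any other library would have broken the ceiling. For 68 more this depended on the library. Of the 94 for which a single read was always allowed, 40 had none. Depth also limits what a count of 0 shows for short, weak genes. At 147 bases, a count of 0 allows up to 1.54 RPKM in some library. That is above the testis floor of 1 RPKM. The 72 genes with reads elsewhere had 430 reads in the 14 other libraries, against 82865 reads of the 193 genes in the breeding testis and 150034 in the non-breeding testis. Of the 72, 45 had 1 to 3 reads over the 14 libraries together, 15 had 4 to 10, and 12 had 11 or more. The 10 genes with the most reads held 54.9% of the 430. Reads appeared in 1 other tissue for 33 genes, in 2 tissues for 20, in 3 for 10 and in all 4 other tissues for 9. The gene with the most reads outside testis had 49 of them in 12 libraries and was itself weak in testis, at 1.14 RPKM (breeding) and 1.29 RPKM (non-breeding). Its highest value elsewhere came to 7.67% of its testis mean, so it met the rule with little contrast.

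Per 1e6 reads on genes, the residual reads were most frequent in ovary and brain. Ovary had 114 reads (2.78 per 1e6), brain 149 (2.24), kidney 85 (1.19) and liver 82 (0.800). The ceiling is set on the divisor, so per 1e6 reads on genes it admits fewer reads in liver than elsewhere. The order of these values therefore depends in part on the rule. In deposited RPKM, with the high liver scale given above, kidney and liver changed places: the summed RPKM of the 193 genes averaged 1.11 ± 0.253 in ovary (SD, n = 2 libraries), 1.03 ± 0.410 in brain, 0.561 ± 0.476 in kidney and 0.654 ± 0.359 in liver (SD, n = 4 libraries each). Over 4 libraries of brain 44 of the genes were read, over 4 of liver 31, over 4 of kidney 29 and over the 2 ovary libraries 35. The 6 male kidney, liver and brain libraries had 189 such reads (1.56 per 1e6), and the 6 female ones had 127 (1.06 per 1e6). Per 1e6, the male value was the higher in brain and kidney at each status. In the non-breeding livers it was the higher too, at 0.699 against 0.374. In the breeding livers the female value was the higher, at 1.51 against 0.689 in the male.

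Single libraries differed within a tissue. The breeding female ovary had 2.62 reads per 1e6 (exact 95% binomial interval 2.003 to 3.364) and the non-breeding female ovary 3.00 (2.25 to 3.93). The breeding male frontal brain had 3.08 (2.31 to 4.02) and the non-breeding male brain 2.53 (1.80 to 3.46). The breeding male kidney had 2.24 (1.61 to 3.03) and the non-breeding male kidney 1.02 (0.607 to 1.62). The breeding value was the higher in 5 of the 7 comparisons within a tissue and sex. In summed RPKM it was the higher in 6 of the 7, all but the female brains, at 0.821 RPKM in the breeder and 0.825 RPKM in the non-breeder. The intervals did not overlap in 1 of these comparisons, the female livers, with 1.51 per 1e6 (1.06 to 2.09) in the breeding and 0.374 (0.180 to 0.689) in the non-breeding female. These intervals cover counting error only, reads are not independent molecules, and a few genes supply many of the reads. Without the 12 genes with 11 or more reads, a choice made after seeing the data, 172 reads remained and the breeding value was the higher in all 7 comparisons. The ovaries then turned, at 1.29 per 1e6 in the breeder and 1.08 in the non-breeder. The male livers turned too, at 0.471 in the breeder and 0.123 in the non-breeder. The male brains came to 1.77 in the breeder and 0.455 in the non-breeder, and the female livers to 0.461 in the breeder and 0.150 in the non-breeder. The rule itself caps every one of these values at 0.1 RPKM, so their order between libraries is a description.

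**Figure D2:**
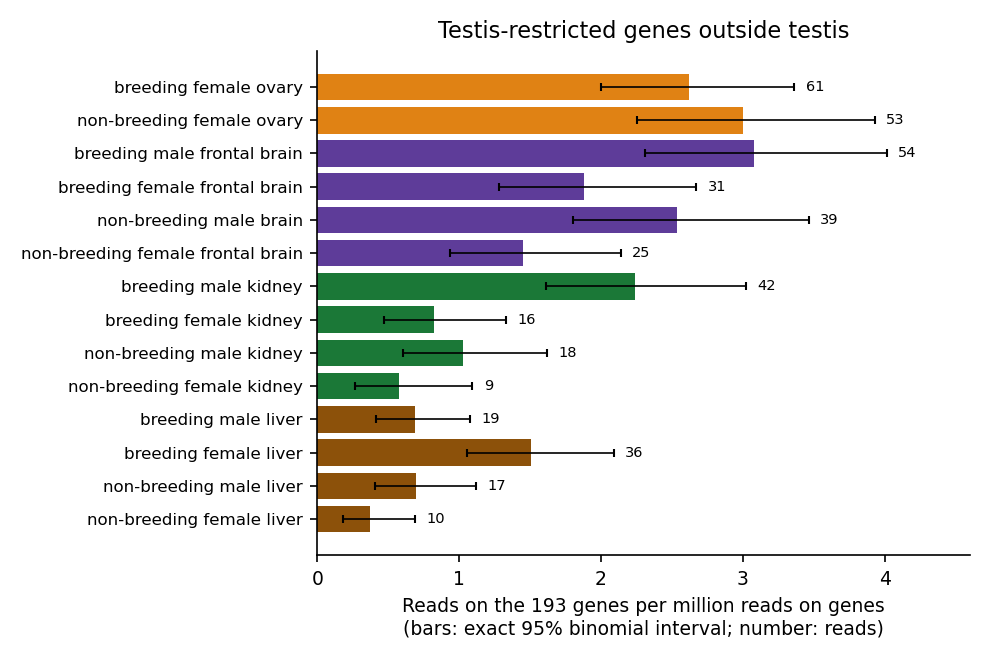
Reads on the 193 testis-restricted genes per 1e6 reads on genes in each of the 14 other libraries, with the exact 95% binomial interval and the number of reads at the end of each bar. The breeding male frontal brain (3.08) and the non-breeding female ovary (3.00) have the highest values and the non-breeding female liver (0.374) the lowest. In summed RPKM the lowest was the non-breeding female kidney (0.210).

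Residual reads were found more often in genes that were deeply read in testis. Of the 33 genes with 2000 or more reads in the testis libraries together, 27 (81.8%) had reads elsewhere, while of the 48 with under 100 testis reads 5 (10.4%) had any. Read numbers of genes unread elsewhere may be too small by a whole factor, as given below with the lengths. Such genes can thus fall into a lower group. As a share of the testis signal, the residual differed between groups. The ceiling of 0.1 RPKM bounds this share, more tightly the higher a gene's testis RPKM. The residual came to 11.6 reads per 10000 testis reads in the genes with 2000 or more, 24.1 in those with 500 to under 2000, 73.5 in those with 100 to under 500 and 17.6 in those with under 100. In the group from 100 to under 500, single genes gave 49 and 27 of the 128 reads elsewhere. Gene length moved with the same groups, from a median of 388.5 bases under 100 testis reads to 1713 bases at 2000 or more. In genes shorter than 753.3 bases a single read would break the ceiling in some or all of the other libraries. The shares of 81.8% and 10.4% therefore depend in part on the rule.

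Length and the library's divisor together set how many reads the rule could let through. A read is worth less RPKM in a long gene than in a short one. With the divisors of the other 14 libraries, 1 read stays under 0.1 RPKM in all of them only from 753.3 bases up and in none of them below 329.99 bases. For 31 of the 193 genes a single read in any other library would have broken the ceiling, for 68 it depended on the library, and for 94 a single read was always allowed. Among these 94, 54 had reads elsewhere and 40 had none. Of genes that reached 1 RPKM in each testis library, 26 were kept out of the set by a single read.

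The 193 genes had short gene models. Lengths were recovered with the reads, in units of 3 bases, and are taken as coding lengths. From the testis columns alone the median was 732 bases, with quartiles of 396 and 1209, against 1152 bases (618 and 2010) for the other 14357 genes. Under 500 bases lay 69 of the 193 (35.8%), against 18.6% of the other genes. At 2000 bases or more lay 19 (9.84%), against 25.2%. Of genes that reached 1 RPKM in each testis library, the rule took 2.55% under 300 bases and 0.719% at 1500 bases or more. At a given low level a short gene gathers fewer reads and more easily shows 0 elsewhere. How far the rule itself favours short genes was not tested. The testis columns were used for both sets because a length is pinned down less well where fewer libraries have reads. For 13812 genes read in 10 or more libraries, the testis columns alone gave a length and read number too small by a whole factor in 17.2% of cases. A like share of the 121 genes without reads elsewhere may therefore be longer, with more reads, than printed. Their RPKM and ratios are unaffected. Counting intervals, read cutoffs and the levels allowed by 0 reads rest on these numbers and carry the same uncertainty.

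The 193 genes were mostly lower in the breeding than the non-breeding testis. Of them 151 (78.2%) had a lower RPKM in the breeding testis and 42 a higher one, and the median log2 ratio, breeding over non-breeding, was -0.37 with quartiles of -0.90 and -0.05. All 14550 genes that reached 1 RPKM in each testis library had a median of -0.06, and 56.5% of them were lower in the breeding testis. Summed RPKM of the 193 genes came to 2767 in the breeding testis and 3852 in the non-breeding testis, a log2 ratio of -0.48, against -0.17 for the sum of the other genes. With 1 library of each status the difference has no replicate check and no test, and age and status cannot be told apart. Nor, in this bulk RNA, can fewer cells of a type and less RNA per cell.

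At a 2-fold difference, 40 of the 193 genes (20.7%) were lower in the breeding testis, where 3.53% of all 14550 genes were. Higher by 2-fold or more were 7 (3.63%), where 1.02% of all genes were. The 40 lower genes ranged from 1.01 to 60.6 RPKM in the breeding testis and from 2.44 to 176.1 RPKM in the non-breeding testis, with medians of 2.95 RPKM in the breeding testis and 9.78 RPKM in the non-breeding testis. The 7 higher genes ranged from 2.26 to 20.5 RPKM in the breeding testis and from 1.04 to 7.51 RPKM in the non-breeding testis. Of the 40 lower genes 27 had no read outside testis, as did 6 of the 7 higher genes and 62.7% of all 193.

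**Figure D3:**
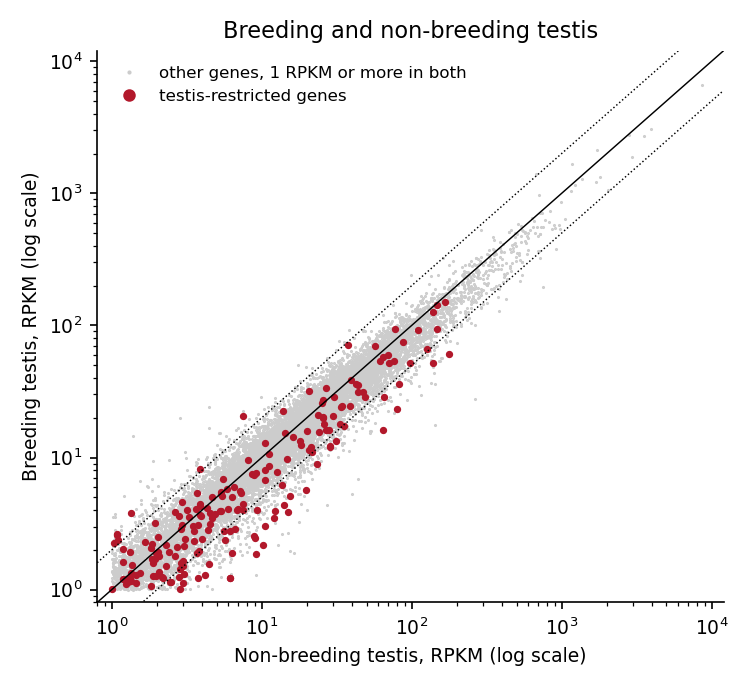
RPKM in the breeding testis (vertical) against the non-breeding testis (horizontal), both on log scales, for the 193 testis-restricted genes (red) and the other 14357 genes at 1 RPKM or more in both (grey); the solid line marks equal values and the dotted lines a 2-fold difference. Among the red points 40 lie on or below the lower dotted line and 7 on or above the upper one.

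Among genes with 50 or more testis reads, DMR_08419 had the lowest ratio. It stood at 1.85 RPKM (69 reads) in the breeding testis and 9.09 RPKM (475 reads) in the non-breeding testis, a log2 ratio of -2.30 with an exact binomial interval of -2.69 to -1.93. It was followed by DMR_15531, at 2.18 RPKM (23 reads) in the breeding and 10.3 RPKM (151 reads) in the non-breeding testis, a log2 ratio of -2.23 (-2.93 to -1.59). Both had 0 reads in all 14 other libraries, and both were weak to moderate in level, ranking 94 and 85 of the 193 by testis mean. Their lower testis values lay 10.9-fold (DMR_08419) and 3.65-fold (DMR_15531) above the highest level that 0 reads allow elsewhere.

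The highest ratios were smaller in size and rested on fewer reads. DMR_05384 stood at 3.78 RPKM (62 reads) in the breeding and 1.35 RPKM (31 reads) in the non-breeding testis, a log2 ratio of 1.48 (0.84 to 2.15). DMR_19407 stood at 20.5 RPKM (84 reads) in the breeding and 7.51 RPKM (43 reads) in the non-breeding testis, a log2 ratio of 1.45 (0.90 to 2.01). Neither had a read outside testis. Their lower testis values lay only 3.52-fold (DMR_05384) and 4.88-fold (DMR_19407) above the highest level that 0 reads allow there.

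The 2 genes with the highest mean of both testes differed little between them. The log2 ratio was -0.15 for DMR_04724 (-0.29 to -0.02) and -0.04 for DMR_11112 (-0.09 to 0.02). The sign for DMR_11112 turned when libraries were scaled to reads on genes (0.01) or by a trimmed mean of log ratios (0.02).

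Reads were few for many of these genes. The median number was 86 in the breeding testis (range 4 to 7100) and 189 in the non-breeding testis (6 to 10981), with under 20 reads in 20 genes in the breeding testis and 7 in the non-breeding testis. The counting interval of the ratio lay wholly below 0 for 101 genes (52.3%, against 36.9% of all genes) and wholly above 0 for 18 (9.33%, against 26.4%). Across the 193 genes the log2 values of the breeding and non-breeding testis had a Pearson correlation of 0.924, and across the other 14357 genes 0.967. Genes are not replicates and the libraries were sequenced to different depth, so these are descriptions.

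The lower values in the breeding testis were found at each level of expression. Between 1 and 3 RPKM (mean of both testes) 8 of 60 genes (13.3%) were 2-fold or more lower in the breeding testis, where 4.04% of all genes of that level were. Between 3 and 10 RPKM they were 19 of 67 (28.4%), where 4.77% of all were. Between 10 and 30 RPKM they were 7 of 36 (19.4%), where 2.58% of all were. At 30 RPKM or more they were 6 of 30 (20%), where 3.12% of all were. Lower by any amount, from the weakest class to the strongest, were 44 genes (73.3%, against 54.3% of all genes of that level), 52 (77.6%, against 55.3%), 29 (80.6%, against 52.6%) and 26 (86.7%, against 63.6%). The class from 1 to 3 RPKM also held 5 of the 7 genes that were 2-fold or more higher in the breeding testis, 8.33% of its 60 genes, where 2.17% of all genes of that level were. Of the other 2 higher genes, 1 lay between 3 and 10 RPKM, where 1.55% of all genes were higher, and 1 between 10 and 30 RPKM, where 0.635% were. At 30 RPKM or more 0 of 30 were higher, where 0.318% of all were.

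The ratio also moved with how far a gene was read outside testis. Among genes at 1 RPKM or more in both testes whose highest other library lay from 0.1 to under 1 RPKM, 625 in number, the median log2 ratio was -0.32 and 10.4% were 2-fold or more lower in the breeding testis. From 1 to under 10 RPKM, with 2412 genes, the median was -0.12 and the share 5.80%. At 10 RPKM or more, with 11320 genes, the median was -0.04 and the share 2.38%. The 193 genes, at -0.37 and 20.7%, extend this order. Within them, the 121 without reads elsewhere had a median of -0.44 and the 72 with reads elsewhere -0.25. This last split also follows gene length. Reads elsewhere were found for 2 of 27 genes under 300 bases and for 29 of 39 at 1500 bases or more. The part of length in the split was not tested.

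**Figure D4:**
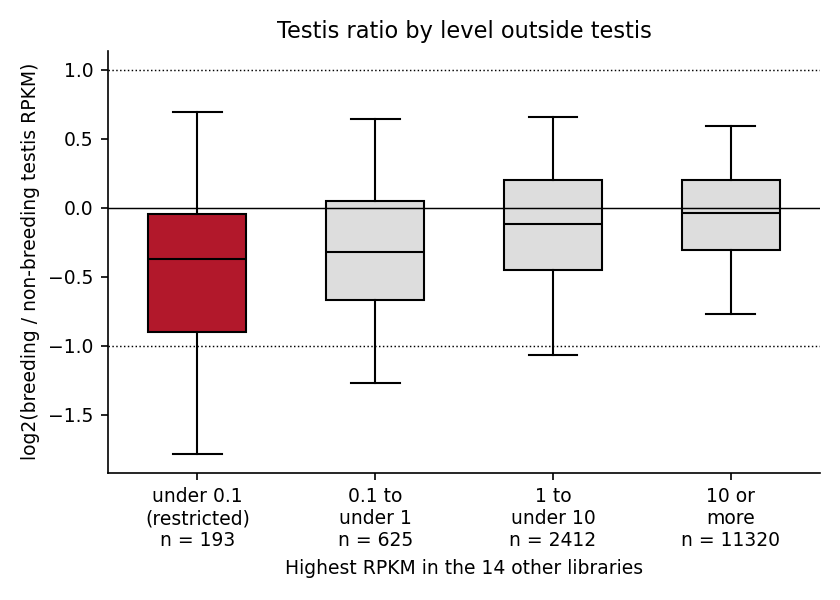
Log2 ratio of breeding over non-breeding testis RPKM for genes at 1 RPKM or more in both testes, grouped by their highest RPKM in the 14 other libraries; boxes show quartiles and median, whiskers the 5th and 95th percentiles, and dotted lines a 2-fold difference. The medians are -0.37, -0.32, -0.12 and -0.04 from the restricted genes to the most broadly read.

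Gene length moved with the ratio too, in the 193 genes and in the rest. By length from the testis columns, the median log2 ratio of the 193 genes was -0.59 under 300 bases, -0.52 from 300 to under 750, -0.35 from 750 to under 1500 and -0.19 at 1500 or more. Other genes of the same lengths had medians of -0.23, -0.17, -0.08 and 0.04. Lower by 2-fold or more in the breeding testis were 25.9% of the 193 genes under 300 bases (7 of 27), against 10.3% of other genes, and 10.3% at 1500 bases or more (4 of 39), against 1.13%. In each of the 4 length classes the share was thus larger in the 193 genes than in other genes of like length. The part of length in the overall difference was not tested further.

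**Figure D5:**
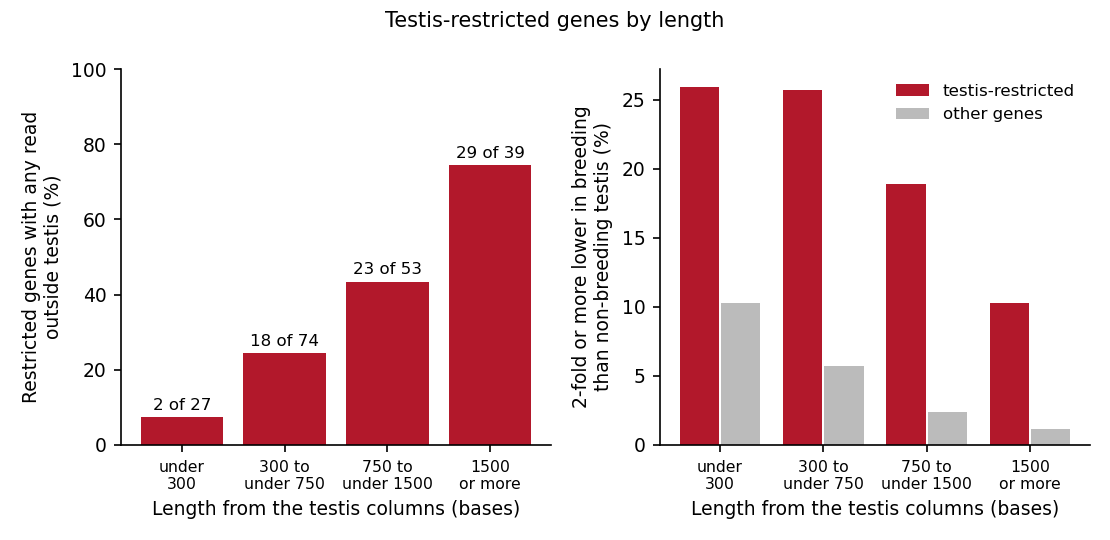
Testis-restricted genes by length from the testis columns: left, the percentage with any read in the 14 other libraries; right, the percentage 2-fold or more lower in the breeding testis, relative to the non-breeding one, for the 193 genes (red) and other genes at 1 RPKM or more in both testes (grey). With increasing length the left bars go from 2 of 27 to 29 of 39 genes, and the red bars on the right from 25.9% to 10.3%.

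Some of the 193 genes carry consecutive identifier numbers. There were 16 such pairs, in 15 runs that held 31 genes (16.1%). Of the other 20889 genes, 324 (1.55%) were numbered next to one of the 193. Whether the numbers follow the order of genes in the genome is not known from the sources used here. In 14 of the 16 pairs both genes were lower in the breeding testis, and in 1 further pair both were higher. Counted as single genes, 78.2% of the 193 were lower, which is not a like measure for pairs. The pairs are not independent, since a run of 3 gives pairs that share a gene and 1 pair has identical values. A pair of short genes of 243 and 261 bases was among the most abundant of the set. They stood at 52.1 and 60.6 RPKM in the breeding testis and at 139.1 and 176.1 RPKM in the non-breeding testis, with log2 ratios of -1.42 and -1.54. The second of them had the highest non-breeding value of the 193 genes. The only run of 3 stood at 12.05, 66.7 and 1.28 RPKM in the breeding testis and at 28.6, 125.9 and 4.17 RPKM in the non-breeding testis. Their log2 ratios were -1.25, -0.92 and -1.70. In another pair both genes had identical values in all 16 libraries, with 1.23 RPKM (4 reads) in the breeding and 6.14 RPKM (28 reads) in the non-breeding testis. Whether reads of near-identical copies were counted for both was not tested. Their values, the lowest ratio of the whole set at -2.33, are therefore uncertain as a measure of 2 genes.

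Genes near the limits of the rule form a continuum with the set. Just inside, 6 genes had a lower testis value under 1.1 RPKM, the nearest at 1.01, and 15 had a highest other library at 0.09 RPKM or more, the nearest at 0.0998. Just outside, 14 genes under 0.1 RPKM elsewhere had a lower testis value of 0.9 to under 1 RPKM, the nearest at 0.996. Likewise 14 genes at 1 RPKM or more in both testes had a highest other library of 0.1 to under 0.11 RPKM, the nearest at 0.1003. Ovary alone kept out 69 genes that were at 1 RPKM or more in both testes and under 0.1 in all kidney, liver and brain libraries. Of these 69 genes 16 reached 1 RPKM in an ovary library and 7 in both.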

How the data were processed

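RNA was measured in 16 libraries of 5 tissues, grouped by the labels' source names. Per the labels' protocols, poly(A)+ RNA was copied from random hexamers, sheared, size selected and read from both ends; no marking of strand is mentioned. The authors deposited RPKM values in 1 table, a library to a column. Reads were aligned with TopHat 1.3.1, per the submitters' processing notes. The build, the annotation and the counting tool were not given in the sources used here.

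Whole reads, lengths in units of 3 bases and library divisors were recovered from the RPKM for 100% of genes, rebuilt values deviating by at most 2.95e-14 of their size; the step was tested on simulated data. A unit of a single base would multiply every divisor by 3. Whether a read is an end or a pair is not given.

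Ratios are of deposited RPKM without pseudocount. Single-gene intervals are exact (Clopper-Pearson, 95%) and cover counting error only; a count of 0 allows up to 3 reads. With 1 library per group no test was run. Alternatives changed scaling, thresholds, pseudocount and the libraries used. Identifiers printed are the 2 genes with the highest testis mean and, among those with 50 or more testis reads, the 2 with the highest and the 2 with the lowest ratio; further genes are described without identifiers and were chosen after their values were seen. The genes and rules were chosen with earlier results of these data known. Cell type markers could not be used, since no identifier has a name. Python 3.11.15, numpy 2.4.6, pandas 2.3.3, scipy 1.17.1 and matplotlib 3.10.9 were used.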

Additional observations from a re-analysis of the deposited data

How the results depend on the processing

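The number of testis-restricted genes depends on the ceiling elsewhere, since a ceiling admits more genes the higher it is set. It was 305 with a ceiling of 0.2 RPKM, 134 with 0.05 RPKM and 121 with 0 RPKM, against 193. The floor in testis moved it too, to 261 genes with 0.5 RPKM and 135 with 2 RPKM. Asking for 10 or more reads in both testis libraries and no read elsewhere gave 148 genes, of which 113 were among the 193. Scaling to reads on genes gave 225 genes, of which 173 were among the 193. Leaving out single libraries gave 193 to 236 genes, and 121 to 129 of the 193 without reads elsewhere. The median log2 ratio of breeding over non-breeding testis lay between -0.38 and -0.32 under all 6 alternatives, and the counts of 2-fold lower genes between 30 and 39 under 5 of them. With log2(RPKM + 1) 2 genes were 2-fold or more higher in the breeding testis, and of the 83 genes at 5 RPKM or more in both testes 1 was higher and 14 were lower (16.9%, against 2.42% of all genes of that level). Of all 14550 genes, 64 were 2-fold or more higher with log2(RPKM + 1), against 148; a pseudocount draws the ratios of low genes toward 0. No paired analysis was possible because each group has 1 library and the labels give no replicate numbers.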
